A study of Daphnia magna with 15 samples.

Results

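The comparison described here set *Daphnia magna* fed a cyanobacterium (*Synechococcus elongatus*, CY) against *D. magna* fed a green alga (*Acutodesmus obliquus*, GA), where both foods were supplemented with eicosapentaenoic acid (EPA), a long-chain ω3 fatty acid, in liposomes. It used the 3 libraries labelled CY +EPA and the 3 labelled GA +EPA, which are 6 of the 15 RNA-seq libraries of the series, and all of the 26646 genes in the deposited tables. All animals belonged to 1 clone (P132.85), were kept at 15 °C and were sampled whole as mothers with the first clutch of eggs in the brood pouch. According to the study's methods, the CY diets also received alpha linoleic acid and cholesterol, so that a difference between the groups cannot be assigned to the basal food: food and these supplements cannot be told apart. Each library came from a pool of animals, given as 3 in the sample source and as 5 in the extraction protocol. The study's methods describe replicate vessels and a pool for each replicate, whereas the labels give no vessel, and p-values measure the spread between these pools.

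Cyanobacteria are a poor food for *Daphnia* because they contain no sterols and no long-chain polyunsaturated fatty acids, and some of them produce inhibitors of the trypsins and chymotrypsins in the *Daphnia* gut. *Daphnia* places lipids and protein into the eggs as vitellogenin, the yolk precursor, which in these animals carries a superoxide dismutase domain. Haemoglobin is dissolved in the haemolymph and is encoded by neighbouring genes. Glutathione is the main small thiol of animal cells, and glutathione S-transferases attach it to reactive compounds.

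The expected counts summed to between 20026630 and 22287959 per library in CY +EPA and between 18938122 and 20060094 in GA +EPA (exact two-sided permutation test of 3 against 3 libraries, p = 0.2), where counts are RSEM estimates of read pairs per gene. The 10 genes with most counts took 17.88 to 18.69% of a library in CY +EPA and 13.49 to 16.63% in GA +EPA (exact p = 0.1, the smallest that 3 against 3 can give). Markers of gut, muscle, compound eye, epidermis, fat cells or ovary, and dividing cells were found in every library. In a set of genes a library of each group stood apart from its own group in the same direction. GA +EPA replicate 1 correlated better with CY +EPA replicate 2 (r = 0.9751 across genes, on log2 CPM, that is counts scaled to library size) than with the other libraries of its group (0.9693 and 0.9605). CY +EPA replicate 2 had r = 0.9769 and 0.9738 with the others of its own group, so it was less set apart by correlation. CY +EPA replicate 3 had r = 0.9759 with GA +EPA replicate 3. Relative to the other libraries of their groups, 542 genes were at least 1 log2 unit lower in both GA +EPA replicate 1 and CY +EPA replicate 2, and 25 were at least 1 higher. The summed gut markers (trypsin, chymotrypsin, alpha-amylase) had 9560, 4820 and 11900 CPM in CY +EPA replicates 1, 2 and 3 and 6650, 15700 and 20400 CPM in GA +EPA. Among the genes low in both libraries, picked with their values in view, were KZS15602.1, a putative peritrophic matrix protein of the gut lining (-2.20 and -2.39 on the log2 scale), and the chitotriosidase KZR98795.1 (-2.47 and -2.85). The part of these libraries in the results was not tested as a cause. Muscle markers summed to between 5440 and 6390 CPM in CY +EPA and between 4380 and 4740 CPM in GA +EPA.

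Of 14289 genes with enough counts to be tested, 21 (0.147%) differed at an adjusted p of 0.01 or less in edgeR's quasi-likelihood test, and these are referred to as called. In CY +EPA 18 of the 21 were higher (0.126% of all tested genes) and 3 were lower (0.021%). The higher genes included trypsins, a globin, a haem peroxidase and a pair of venom allergen proteins, and the lower genes included a glutathione S-transferase. Every CY +EPA library lay above or below every GA +EPA library in all of the 21, as it did in 26.8% of all tested genes. At an adjusted p of 0.05 or less, 219 genes (1.53%) passed, 156 higher (1.09%) and 63 lower (0.441%) in CY +EPA. With RLE scaling in place of TMM 158 were higher and 66 lower. In limma on log2(FPKM + 1), which changed the unit and the test together, 74 were higher and 110 lower at that level, and 16 were higher and 7 lower among called genes. In whole animals a lower level may come from fewer cells of a kind or from less RNA per cell, and these cannot be told apart.

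The count of called genes depended on the libraries. It was 330 (153 higher, 177 lower) when CY +EPA replicate 2 and GA +EPA replicate 1 were left out together, and all of the 21 genes were among them. This pair was picked after the data had been seen, for a likeness across the groups. Leaving it out can by itself narrow the spread within groups. The counts without it, here and below, are therefore no separate support for a difference. Of the 219 genes at the 0.05 level all had the same sign without this pair, and 217 passed at that level again. With a single library left out the count of called genes was 0 without CY +EPA replicate 1, 2 without CY +EPA replicate 2 and 0 without CY +EPA replicate 3. It was 23 without GA +EPA replicate 1, 1 without GA +EPA replicate 2 and 0 without GA +EPA replicate 3. In the 3 fits with 0 called genes, 1939, 2345 and 2323 genes had an unadjusted p below 0.05 (edgeR). The 21 genes kept their direction in each of these fits, and their largest adjusted p was 0.112 (edgeR), without CY +EPA replicate 1. DESeq2 called 509 genes, the 21 among them.

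**Figure D1:**
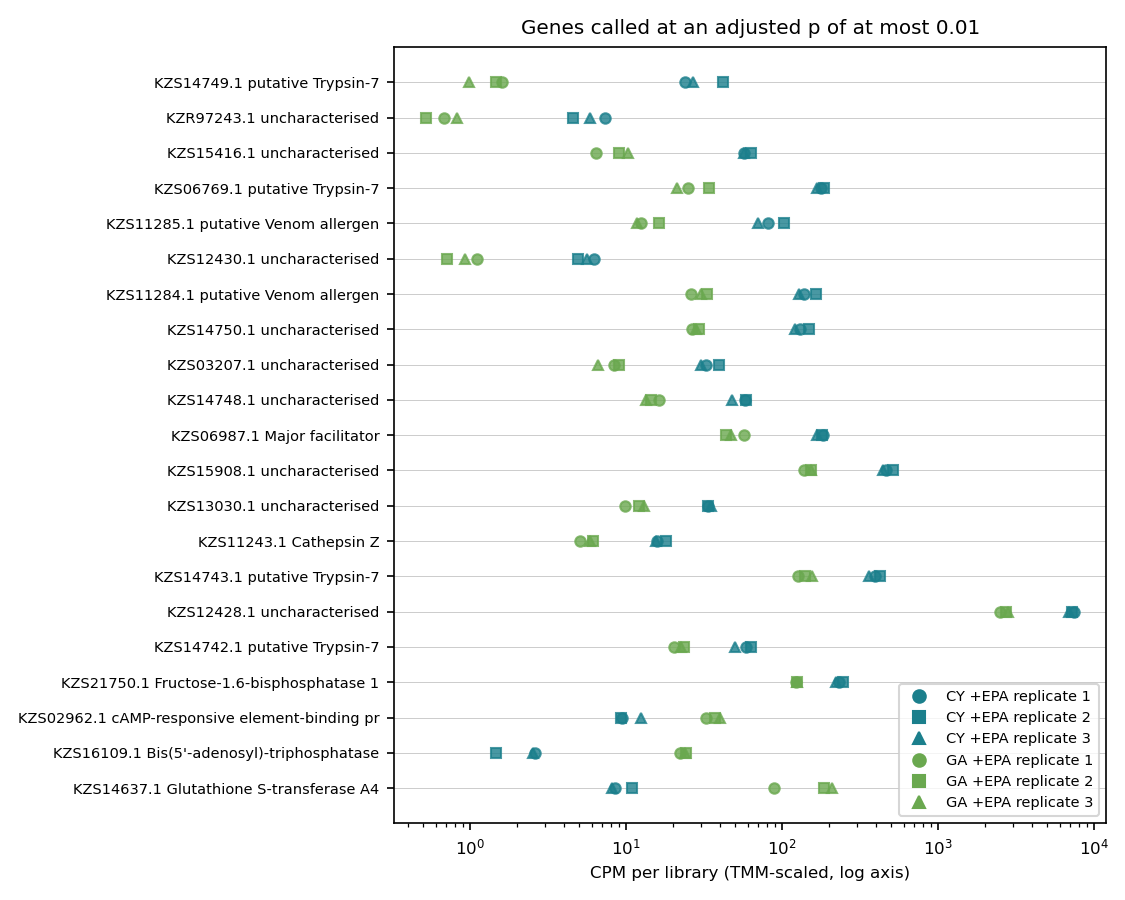
CPM (log axis) of the 21 called genes in each of the 3 CY +EPA and 3 GA +EPA libraries, ordered by fold change. The groups do not overlap in any of the genes. Of the genes 18 lie to the right in CY +EPA and 3 to the left.

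Serine proteases gave the most called genes among the 35 families that were defined by product name. Of 51 tested members 4 were called, all higher in CY +EPA, and 8 were higher and 0 lower at the 0.05 level. The 4 were all named putative Trypsin-7, and trypsins are digestive proteases that cleave after basic residues. For KZS14742.1 artNOG gives another description (GLECT) and category (W), unlike the rest, so that its identity is uncertain. KZS14749.1 had 23.7, 41.4 and 26.9 CPM in CY +EPA replicates 1, 2 and 3 and 1.6, 1.47 and 0.982 CPM in GA +EPA, a log2 fold change of 4.49 (SE 0.30, adjusted p = 0.00452). KZS06769.1 had 177, 185 and 167 CPM in CY +EPA and 24.7, 33.8 and 21.3 CPM in GA +EPA (log2 fold change 2.73, SE 0.18, adjusted p = 0.00452). In both genes the lowest CY +EPA library was several times above the highest GA +EPA library, and CY +EPA replicate 2, one of the libraries that stood apart, had the highest value. KZS14743.1 had 395, 421 and 362 CPM against 127, 139 and 156 CPM (log2 fold change 1.48, SE 0.11, adjusted p = 0.00704). KZS14742.1 had 59.0, 63.3 and 49.7 CPM against 20.2, 23.4 and 22.4 CPM (log2 fold change 1.38, SE 0.11, adjusted p = 0.00902). Summed over the 16 tested genes with this product name, Trypsin-7 gave 1260, 1350 and 1150 CPM in CY +EPA and 742, 743 and 712 CPM in GA +EPA, so that no library of one group reached the other. At the 0.05 level 7 of these 16 were higher and 0 lower. This set of 16 was formed with the values in view. The summed gut markers overlapped between the groups, as given above. Of these 37 markers 31 are serine proteases of the same list, among them all 7 that passed at the 0.05 level, so the markers are not a separate measure.

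Of the called genes, 5 lay within a single stretch of scaffold LRGB01000944.1 of the authors' annotation, between positions 1626749 and 1681881 (55.1 kb). This stretch held 9 tested genes. Besides KZS14742.1, KZS14743.1 and KZS14749.1 the called genes in it were KZS14750.1, an uncharacterised protein that artNOG describes as a trypsin-like serine protease, and KZS14748.1, described as a heterochromatin protein. KZS14750.1 had 130, 148 and 120 CPM in CY +EPA and 26.5, 29.3 and 27.8 CPM in GA +EPA (log2 fold change 2.25, SE 0.10) and the smallest adjusted p of all genes (0.00344, edgeR). KZS14748.1 had 57.5, 58.9 and 47.9 CPM against 16.1, 14.4 and 13.3 CPM (log2 fold change 1.91, SE 0.12). Between them KZS14744.1, a Trypsin-7-like protein, had a log2 fold change of 0.00 (SE 0.25, adjusted p = 1.00) at about 1 CPM. KZS14747.1, an ah receptor-interacting protein, had 16.7, 15.6 and 17.3 CPM in CY +EPA and 18, 20.2 and 18.8 CPM in GA +EPA (-0.20, SE 0.09, adjusted p = 0.267). The difference therefore did not extend to every gene of the stretch, and KZS14745.1 (1.77, adjusted p = 0.078) and KZS14746.1 (0.35, adjusted p = 0.565) did not pass either. Further along the same scaffold, 3 adjacent genes passed at the 0.05 level, the trypsins KZS14796.1 and KZS14797.1 and the metalloendopeptidase KZS14798.1 (99.3, 136 and 90.4 CPM in CY +EPA, 27.5, 32.7 and 35.6 CPM in GA +EPA, log2 fold change 1.76, SE 0.18, adjusted p = 0.0165). RSEM split reads between KZS14796.1 or KZS14798.1 and other genes, so that their levels are uncertain.

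**Figure D2:**
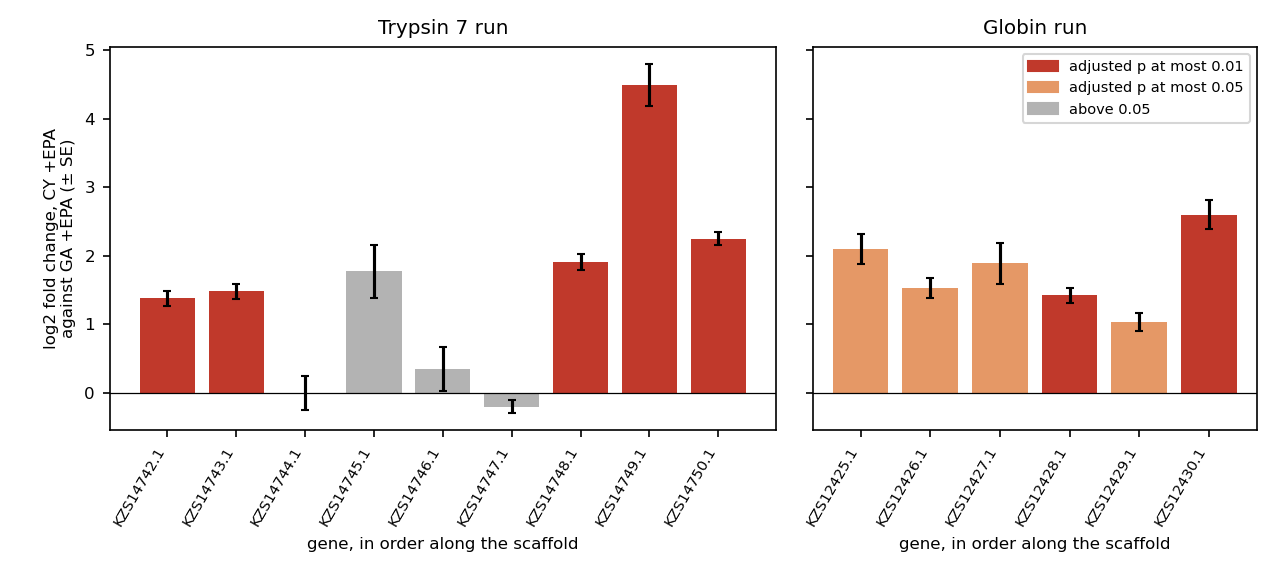
Log2 fold change of CY +EPA against GA +EPA (bars, with the standard error) for the tested genes of the Trypsin-7 stretch (left, 9 genes) and of the globin stretch (right, 6 genes), in their order along the scaffold. Of the 9 genes 5 are called, and of the 6 genes all pass at the 0.05 level. Both stretches were bounded by genes that passed, so these shares are in part fixed in advance.

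The serine proteases with the most counts did not follow these trypsins. KZS14413.1, annotated as Jonah 65Aiv, had 1940, 880 and 2740 CPM in CY +EPA and 2220, 6000 and 7620 CPM in GA +EPA (log2 fold change -1.51, SE 0.56, adjusted p = 0.201). The chymotrypsin-like KZS14415.1 had 1480, 614 and 2110 CPM against 1470, 3930 and 5040 CPM (log2 fold change -1.31, SE 0.58, adjusted p = 0.260). In each group the lowest library was the one that stood apart, and the groups overlapped. Without that pair KZS14413.1 was called lower in CY +EPA (log2 fold change -1.54, adjusted p = 0.00873) and KZS14415.1 was not (-1.32, adjusted p = 0.0139, edgeR). Both were picked with their values in view. The median log2 fold change of the 51 tested serine proteases was 0.00, against -0.03 for all tested genes, and without the pair that stood apart 7 were called higher and 3 lower.

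Among 61 other digestive peptidases the called gene was KZS11243.1, cathepsin Z, a lysosomal cysteine peptidase, with 15.8, 18.0 and 15.4 CPM in CY +EPA and 5.03, 6.08 and 5.84 CPM in GA +EPA (log2 fold change 1.54, SE 0.12, adjusted p = 0.00902). At the 0.05 level 3 members were higher, among them carboxypeptidase A4 (KZS08433.1, log2 fold change 2.41, SE 0.22, adjusted p = 0.0111), and aminopeptidase N (KZS18139.1) was lower (-0.60, SE 0.06, adjusted p = 0.0169). In both of these genes RSEM split reads with other genes. The median of the list was -0.26 and ranged from -0.49 without CY +EPA replicate 3 to -0.08 without GA +EPA replicate 3, and it was -0.10 without CY +EPA replicate 2 and -0.45 without GA +EPA replicate 1. Without the pair that stood apart 3 were called higher and 5 lower. Of 40 tested carbohydrate-digesting hydrolases 1 passed at the 0.05 level, the endoglucanase KZS07093.1, which cuts cellulose chains (log2 fold change 1.01, SE 0.13, adjusted p = 0.0245). The lactase-phlorizin hydrolase KZS18806.1, the member with the most counts, did not pass (-0.60, adjusted p = 0.575).

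The remaining called genes that were higher in CY +EPA had varied annotations. A pair of neighbouring putative venom allergens, secreted cysteine-rich proteins, moved together: KZS11284.1 had 137, 164 and 128 CPM in CY +EPA and 26, 32.7 and 30.1 CPM in GA +EPA (log2 fold change 2.27, SE 0.13, adjusted p = 0.00452). KZS11285.1 had 81.1, 103 and 70.2 CPM against 12.5, 16.1 and 11.8 CPM (log2 fold change 2.66, SE 0.19, adjusted p = 0.00652), with reads split between genes. Of the 12 tested genes with this product name these were the ones called, and the other 10 did not pass at the 0.05 level. KZS06987.1, a transporter of the major facilitator superfamily, had 183, 179 and 166 CPM against 57.0, 43.6 and 47.2 CPM (log2 fold change 1.84, SE 0.12, adjusted p = 0.00452). KZS15908.1 is uncharacterised by its product name and an animal haem peroxidase by its artNOG description, an enzyme class that oxidises substrates with hydrogen peroxide. It had 466, 510 and 443 CPM in CY +EPA and 138, 153 and 153 CPM in GA +EPA (log2 fold change 1.68, SE 0.09, adjusted p = 0.00452). KZS21750.1, named fructose-1,6-bisphosphatase but described in artNOG as a dienelactone hydrolase, had 230, 245 and 222 CPM against 123, 125 and 125 CPM (log2 fold change 0.90, SE 0.07, adjusted p = 0.00882). This was the smallest difference among the called genes.

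Uncharacterised genes made up the rest. KZS15416.1 had 56.6, 62.9 and 56.8 CPM in CY +EPA and 6.39, 8.98 and 10.2 CPM in GA +EPA (log2 fold change 2.78, SE 0.18, adjusted p = 0.00452). KZR97243.1, described in artNOG as trypsin-like, had 7.25, 4.57 and 5.82 CPM against 0.677, 0.523 and 0.827 CPM (log2 fold change 3.11, SE 0.27, adjusted p = 0.00989), again with split reads. The uncharacterised KZS03207.1 (log2 fold change 2.09, SE 0.16) and KZS13030.1 (1.54, SE 0.12), described as an ADP-ribosylation factor-like protein, were also called. A further pair of uncharacterised genes is described with the globins.

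The 3 called genes that were lower in CY +EPA included an enzyme that attaches glutathione and an enzyme that splits dinucleotides. KZS14637.1, glutathione S-transferase A4, had 8.44, 10.8 and 8.13 CPM in CY +EPA and 88.5, 184 and 209 CPM in GA +EPA (log2 fold change -4.13, SE 0.36, adjusted p = 0.00989). Replicate 1 was the lowest GA +EPA library, yet was still far above CY +EPA. KZS16109.1, annotated as bis(5'-adenosyl)-triphosphatase, had 2.58, 1.46 and 2.52 CPM against 22.2, 24.1 and 23.9 CPM (log2 fold change -3.42, SE 0.22, adjusted p = 0.00452). KZS02962.1 carries the product name of a cAMP-responsive element-binding protein but a CUB domain in artNOG, and had 9.35, 9.28 and 12.5 CPM against 32.4, 37.1 and 40.1 CPM (log2 fold change -1.82, SE 0.15, adjusted p = 0.00964). Reads of KZS02962.1 were split with other genes.

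Other genes of glutathione metabolism were also lower in CY +EPA at the 0.05 level. A group of 36 tested genes was formed with the values in view, by glutathione, glutamate-cysteine ligase or ChaC-like in the annotation. Of these genes 5 were lower and 0 higher at that level, and the choice of terms may have raised the count. KZS15426.1, glutathione synthetase, which joins glycine to gamma-glutamylcysteine, had 37.9, 35.1 and 39.7 CPM in CY +EPA and 76.2, 116 and 128 CPM in GA +EPA (log2 fold change -1.51, SE 0.20, adjusted p = 0.0251). KZS07939.1, the catalytic subunit of glutamate-cysteine ligase, which makes gamma-glutamylcysteine, had 33.3, 30.6 and 42.6 CPM against 75.2, 102 and 141 CPM (log2 fold change -1.58, SE 0.25, adjusted p = 0.04) with split reads. In both genes the groups were separated and GA +EPA replicate 1 was the lowest of its group. KZS02845.1, which artNOG describes as ChaC-like, a family that degrades glutathione, was lower as well (log2 fold change -1.35, SE 0.22, adjusted p = 0.0482). Without the libraries that stood apart 7 genes of the group were called, all lower. The group was not uniform: KZS19194.1, another glutathione S-transferase, had 811, 753 and 742 CPM in CY +EPA and 619, 520 and 444 CPM in GA +EPA (0.54, SE 0.13, adjusted p = 0.103). Beyond this group, ferritin KZS07197.1, the iron store, fell from 2070, 2230 and 2360 CPM in GA +EPA to 1480, 1340 and 1300 CPM in CY +EPA (log2 fold change -0.69, SE 0.10, adjusted p = 0.0355). The alcohol dehydrogenase KZS03322.1 (-2.82, SE 0.31, adjusted p = 0.0173) and the carbonyl reductase KZS07833.1 (-1.62, SE 0.22, adjusted p = 0.0269) also passed.

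Many vitellogenin genes were higher in CY +EPA at the 0.05 level, although none was called. Summed over the 34 tested genes with the artNOG description vitellogenin, the level was 139000, 111000 and 128000 CPM in CY +EPA and 65900, 44600 and 43700 CPM in GA +EPA. The groups were separated, and the pair of libraries that stood apart came closest to each other. At the 0.05 level 15 of the 34 were higher and 0 were lower, and 31 had a log2 fold change above 0, with a median of 1.02. This group was formed with the values in view. The yolk and lipoprotein list, defined by product name, gave less. Of its 35 tested genes 4 were higher and 0 lower at the 0.05 level, and 20 were above 0, with a median of 0.19. KZR99965.1, a vitellogenin fused with superoxide dismutase, had 16300, 12600 and 15500 CPM against 7370, 4430 and 4600 CPM (log2 fold change 1.44, SE 0.24, adjusted p = 0.0481). KZS01801.1, the member of the yolk list with the most counts, had 23400, 19300 and 21400 CPM against 11400, 7180 and 6650 CPM (1.34, SE 0.24, adjusted p = 0.0543). Without the libraries that stood apart 28 of the 34 were called, all higher in CY +EPA, and KZS01801.1 had a log2 fold change of 1.69 (adjusted p = 0.00194, edgeR). RSEM split reads in 21 of the 34 genes, so that the values of single genes are uncertain. KZR99965.1 and KZS01801.1 begin at position 1 of their scaffolds and may be parts of genes. The counts of members therefore need not be counts of separate genes. The vitellogenins that the study used as check genes differed less. The study checked them for a response to EPA on the green alga, not for a difference between foods. KZS21011.1 had a log2 fold change of 0.29 (adjusted p = 0.222), KZS21012.1 of -0.03 (adjusted p = 0.907) and KZS06496.1 of 0.16 (adjusted p = 0.410). Microsomal triglyceride transfer protein (KZS04667.1), which loads lipid onto such lipoproteins, had 400, 390 and 368 CPM against 271, 255 and 227 CPM (log2 fold change 0.62, SE 0.09, adjusted p = 0.0372).

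Globin genes that passed at the 0.05 level were all higher in CY +EPA. Over the 15 genes with the artNOG description globin the sum was 21800, 19400 and 19000 CPM in CY +EPA and 8620, 8730 and 8320 CPM in GA +EPA, a ratio of 2.35. Within each group these sums were close, and the libraries that stood apart in gut markers did not differ from the rest. Of the 15 genes 1 was called, and 9 were higher and 0 lower at the 0.05 level. By product name 4 of 8 were higher at that level and 0 lower. The group of 15 was formed with the values in view. Without the libraries that stood apart 9 of the 15 were called, all higher. The called gene, KZS12428.1, had 7410, 7210 and 6860 CPM against 2500, 2740 and 2800 CPM (log2 fold change 1.42, SE 0.11, adjusted p = 0.00704). Haemoglobin KZS12426.1, the globin with the most counts by product name, had 3350, 3160 and 2980 CPM against 1000, 1310 and 988 CPM (1.53, SE 0.14, adjusted p = 0.0125). KZS12429.1 followed with 10800, 8750 and 8880 CPM against 4990, 4540 and 4400 CPM (1.03, SE 0.13, adjusted p = 0.0251). In all 3 genes RSEM split reads with other genes. They lie with KZS12425.1 and KZS12427.1 on scaffold LRGB01001361.1 between positions 1120951 and 1147435, where all 6 tested genes passed at the 0.05 level. This stretch, too, was bounded by genes that passed, so that share was in part fixed in advance. The last gene of that stretch, KZS12430.1, is no globin but an uncharacterised protein of the DM4/DM12 family, and was called (6.23, 4.93 and 5.61 CPM against 1.11, 0.713 and 0.93 CPM, log2 fold change 2.60, SE 0.21, adjusted p = 0.00902). The 2 neuroglobins did not pass: KZS17126.1 had a log2 fold change of -0.60 (adjusted p = 0.132) and KZS21721.1 of -0.45 (adjusted p = 0.444).

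**Figure D3:**
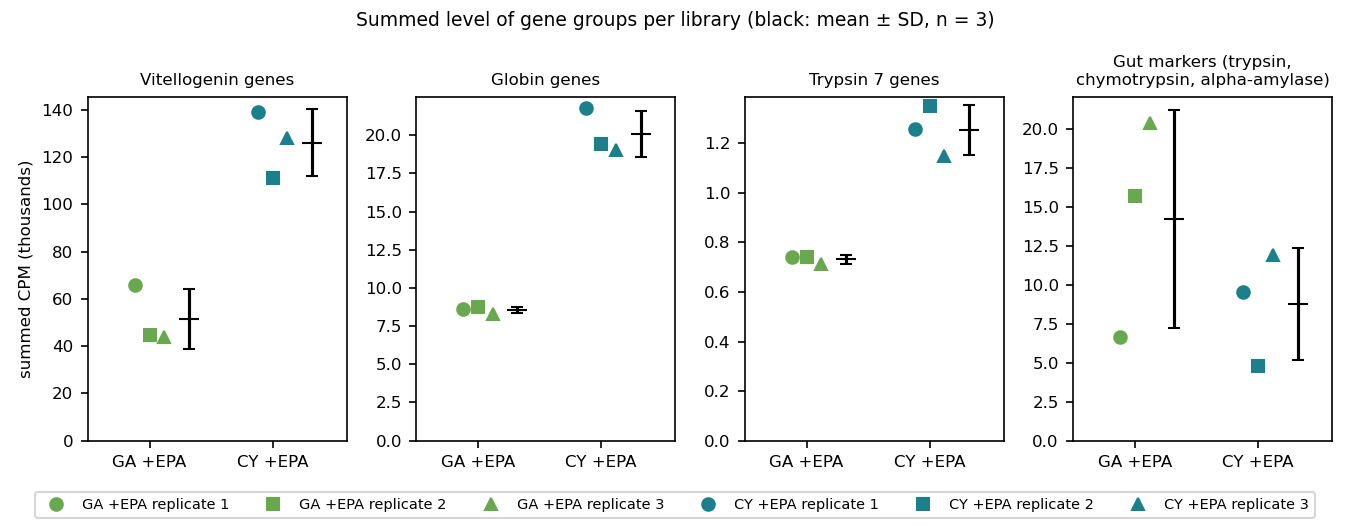
Summed CPM per library of the 34 vitellogenin genes, the 15 globin genes, the 16 Trypsin-7 genes and the 37 gut marker genes in GA +EPA and CY +EPA, with the mean and SD of 3 libraries in black. The groups are separated in the panels of vitellogenins, globins and Trypsin-7 and overlap in the gut markers, where GA +EPA replicate 1 and CY +EPA replicate 2 are the lowest.

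Genes of fatty acid and sterol handling gave few differences, all at the 0.05 level. Members named here and above for passing only that level were picked with their values in view, apart from those with the most counts of their list. Of 32 tested genes of fatty acid synthesis and activation 3 were higher in CY +EPA and 0 lower, and the 3 were ligases that activate long-chain fatty acids with coenzyme A. KZS19371.1 had 241, 275 and 257 CPM against 136, 152 and 119 CPM (log2 fold change 0.92, SE 0.11, adjusted p = 0.0235), and KZS01728.1 had 83.3, 98.2 and 88.9 CPM against 49.7, 50.5 and 38.6 CPM (0.96, SE 0.13, adjusted p = 0.0268). The third was KZS19375.1 (0.85, SE 0.11, adjusted p = 0.0245), with split reads. KZS01728.1 begins at position 1 of its scaffold and may be part of a gene, so the 3 need not be separate genes. The other 5 ligases with this product name did not pass, among them the one with the most counts of the list (KZS17817.1, -0.41, adjusted p = 0.272). Of 46 sterol and sphingolipid genes 2 were higher and 0 lower. The first was KZS14252.1, a Niemann-Pick type C-2 homologue, which binds cholesterol in other animals (591, 750 and 575 CPM against 322, 308 and 261 CPM, log2 fold change 1.10, SE 0.14, adjusted p = 0.0248). The other was KZS20049.1, the sterol regulatory element-binding protein, a transcription factor of lipid synthesis (181, 170 and 158 CPM against 103, 105 and 108 CPM, 0.68, SE 0.08, adjusted p = 0.0195). Most of the list went the other way, with a median of -0.19 and 11 of the 46 above 0. Without the pair of libraries that stood apart 3 were higher and 8 lower at the 0.05 level. None of 26 genes of fatty acid oxidation and none of 12 fatty acid binding and transport proteins passed. KZS18357.1, the fatty acid-binding protein used as a check gene, had a log2 fold change of -0.12 (adjusted p = 0.647). In the eicosanoid list 1 of 20 passed, the phospholipase A2 KZS08312.1, an enzyme that releases fatty acids from membranes (7.74, 6.95 and 6.3 CPM against 13.9, 11 and 12.8 CPM, -0.85, SE 0.14, adjusted p = 0.0481).

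Several enzymes of sugar metabolism were higher in CY +EPA by small factors. Of 37 tested genes of glycolysis and the citrate cycle 6 were higher and 1 lower at the 0.05 level, and the median log2 fold change was 0.38 with 34 above 0. On log2(FPKM + 1) the median was 0.20 with 30 above 0. Fructose-bisphosphate aldolase (KZS13235.1), the member with the most counts, had 1930, 2060 and 1890 CPM in CY +EPA and 1320, 1270 and 1240 CPM in GA +EPA (0.62, SE 0.09, adjusted p = 0.0319). Phosphoenolpyruvate carboxykinase (KZS05421.1), which acts in the synthesis of glucose, had 721, 838 and 764 CPM against 440, 468 and 459 CPM (0.76, SE 0.09, adjusted p = 0.0211). Pyruvate carboxylase (KZS10155.1), which precedes it in that pathway but was not a member of the list, differed by more and had 571, 730 and 619 CPM against 310, 280 and 269 CPM (1.16, SE 0.12, adjusted p = 0.0167). The lactate dehydrogenases split: KZS10560.1 (0.95, SE 0.12, adjusted p = 0.0255) and KZS04571.1 (0.66, SE 0.10, adjusted p = 0.0372) were higher and KZS10559.1 (-0.63, SE 0.09, adjusted p = 0.0308) was lower. The check gene KZS15286.1 did not pass (-0.04, adjusted p = 0.876). The study lists it under glyceraldehyde-3-phosphate dehydrogenase, whereas the annotation names it a glycerol-3-phosphate dehydrogenase 1-like protein.

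**Figure D4:**
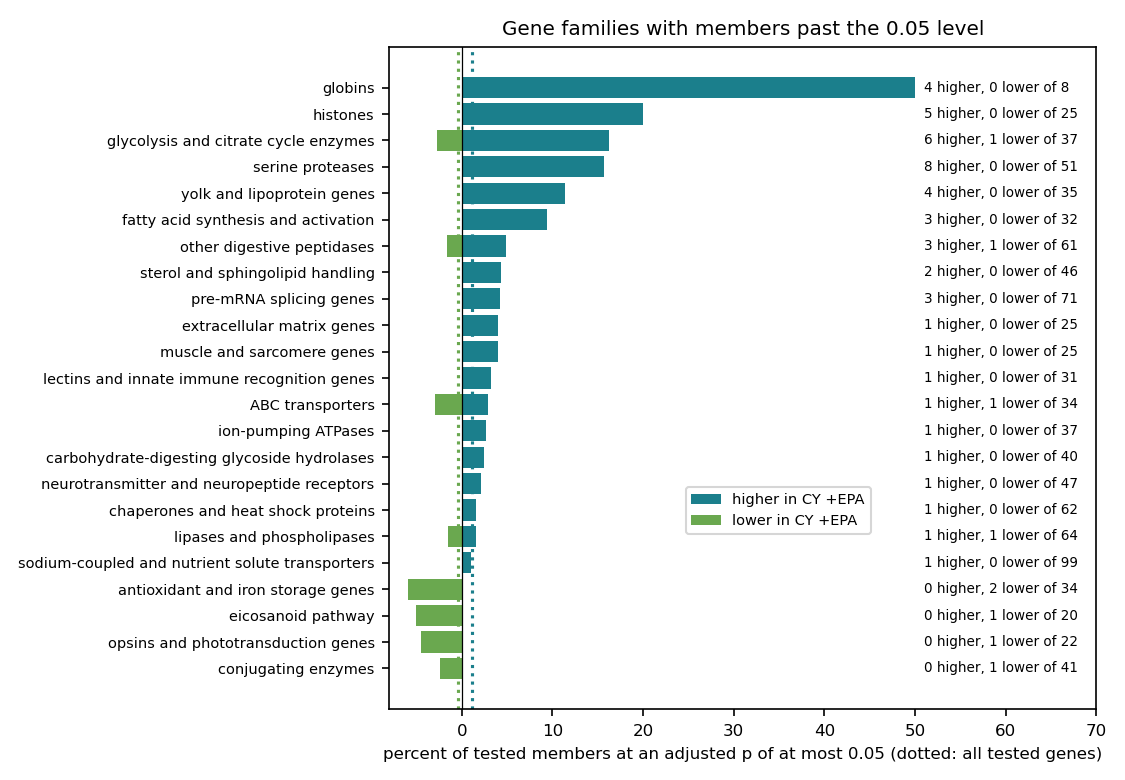
Percent of the tested members of each family that were higher (right) or lower (left) in CY +EPA at an adjusted p of 0.05 or less, with the counts at the right edge and the share among all tested genes as dotted lines (1.09% higher, 0.441% lower). Families without such a member are left out. Globins, histones, enzymes of glycolysis and the citrate cycle and serine proteases have the largest shares of higher members. Of 67 listed histones only 25 had enough counts to be tested, some of them only through CY +EPA. Nothing is read from the histone share.

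The respiratory chain, the proteasome and the cytosolic ribosome gave no member past the 0.05 level. In 61 genes of the mitochondrial respiratory chain the median log2 fold change was 0.26 and 60 were above 0, and in 34 proteasome subunits it was 0.21 with all 34 above 0. On FPKM, where the median of all tested genes was -0.14 (limma, log2(FPKM + 1)) instead of -0.03, these medians were 0.09 and 0.05 and the numbers above 0 were 48 and 24. The 82 cytosolic ribosomal proteins had a median of 0.09, which became -0.08 on FPKM and 0.03 without CY +EPA replicate 1. Of 71 pre-mRNA splicing genes 3 were higher and 0 lower at the 0.05 level. The U5 small nuclear ribonucleoprotein helicase KZS07058.1, which unwinds RNA in the spliceosome, had 284, 259 and 299 CPM against 191, 180 and 178 CPM (log2 fold change 0.62, SE 0.08, adjusted p = 0.0294), and the splicing factor Prp31 (KZS21783.1) had 58.8, 57.4 and 58.7 CPM against 38.3, 42 and 41 CPM (0.53, SE 0.07, adjusted p = 0.0251). Cuticle structural proteins had a median of -0.49 in 58 genes and chitin genes of -0.37 in 40, with none past the level. In CY against GA without EPA, described below, the cuticle median had the opposite sign (1.05 over 51 genes, of which 0 were called). The cuticle median was -0.30 without CY +EPA replicate 1, -0.75 without CY +EPA replicate 2 and -0.76 without the pair that stood apart, and none of these genes was called in that fit. The chitin median was -0.60 without that pair, where 2 genes were called lower, and -0.58 on log2(FPKM + 1). Cytochrome P450 genes, which oxidise lipids and foreign compounds, had a median of -0.31 in 27 genes, none of which passed. It was -0.19 without CY +EPA replicate 2 and -0.18 without GA +EPA replicate 3, and without the pair that stood apart 4 were called lower. Of 22 opsin and phototransduction genes 1 passed, the long-wavelength-like opsin KZS10165.1 (8.11, 8.22 and 6.24 CPM against 15.8, 12.7 and 15.2 CPM, log2 fold change -0.95, SE 0.15, adjusted p = 0.0449). The compound eye markers share 21 of their 22 genes with this list, KZS10165.1 included, so they give no separate measure of eye tissue. By artNOG category, lipid transport and metabolism (I) had the highest share of genes past the 0.05 level among the categories with over 100 genes (24 higher and 1 lower of 373, 6.70%), which includes the vitellogenins. Amino acid transport and metabolism (E), which includes the trypsins, had 17 higher and 4 lower of 421 (4.99%).

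The same foods were also compared without EPA, in 3 CY and 3 GA libraries of which none entered the comparison above. According to the study's methods the sequenced green alga group without EPA received liposomes without EPA, which the labels do not state. There 854 of 14264 genes (5.99%) were called. All 21 genes called with EPA had the same sign without EPA, and 12 of them (57.1%) were called there as well. Those 12 were 1.41% of the 854. Among all 14035 genes tested in both comparisons 67.7% had the same sign. Of the 219 genes at the 0.05 level 218 were tested without EPA, and 207 of these (95%) had the same sign. The genes lower in CY +EPA had fold changes close to these without EPA: glutathione S-transferase A4 (KZS14637.1) had -3.80 (SE 0.32) without EPA and bis(5'-adenosyl)-triphosphatase (KZS16109.1) had -3.33 (SE 0.43). Some of the higher genes had smaller values without EPA, which the choice of genes by their difference with EPA can itself produce. The haem peroxidase KZS15908.1 had a log2 fold change of 0.30 (SE 0.13, adjusted p = 0.188) without EPA. The putative Trypsin-7 genes KZS14742.1 and KZS14749.1 had 0.26 (SE 0.19, adjusted p = 0.423) and 1.78 (SE 0.37, adjusted p = 0.0209). For the fused vitellogenins the order was the reverse: the median over the 13 genes was 1.52 with EPA and 3.13 without, where all 13 were called. RSEM split reads in 8 of the 13, so they are not 13 separate measurements.

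**Figure D5:**
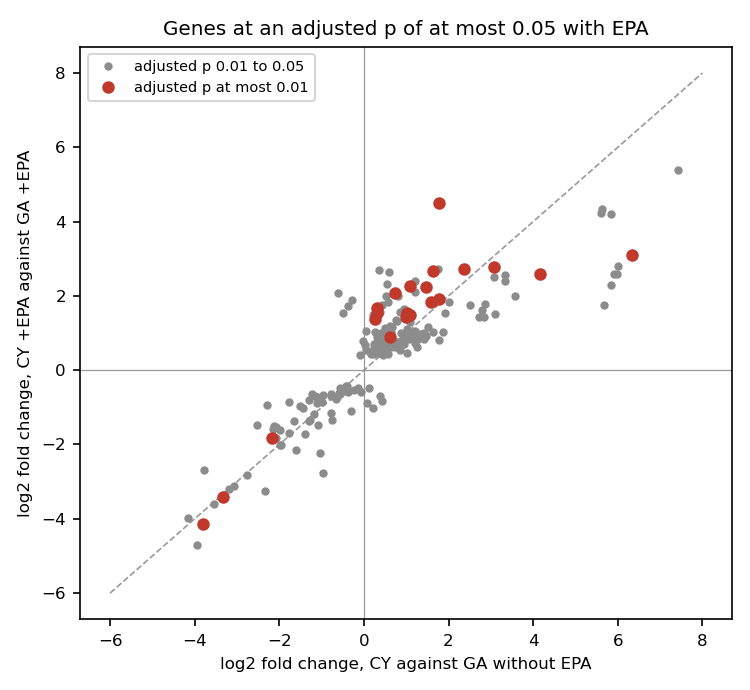
Log2 fold change of CY against GA with EPA (vertical axis) and without EPA (horizontal axis) for the 218 genes at an adjusted p of 0.05 or less with EPA that were tested in both. The 21 called genes (red) all lie in the quadrants of equal sign, and the dashed line marks equal fold changes.

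Whether the difference between the foods depended on EPA was tested as an interaction over the 12 libraries. Of 14816 genes 0 (0%) were called, the smallest adjusted p was 0.0784 (edgeR), and 1599 had an unadjusted p below 0.05 (10.8%). DESeq2 called 44. Among the 21 called genes 12 had an unadjusted p below 0.05. These genes were chosen for their difference with EPA, and the same libraries enter the interaction. Their share can therefore not be set against that of all genes. For KZS15908.1 the log2 fold change with EPA exceeded that without by 1.37 (SE 0.17, adjusted p = 0.0784), and for KZS14749.1 by 2.71 (adjusted p = 0.213), so that a dependence on EPA was not shown for these genes at this number of libraries.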

How the data were processed

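RNA was sequenced from pools of whole *D. magna*. The authors trimmed reads with Trimmomatic, aligned them with Bowtie2 and estimated expected counts per gene with RSEM 1.2.31, per the labels. The deposited FPKM values were scaled by RSEM to gene length and library size. Product names and artNOG descriptions are those of the deposited annotation, which covered 26645 of 26646 genes, and the 2 sources differ for some genes. Of these genes 0 matched the RefSeq gene table given. In 5630 genes RSEM split reads between genes in at least 1 library, seen as counts that are not whole.

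Expected counts were rounded, filtered with filterByExpr, scaled by TMM and tested in edgeR 4.0.16 (quasi-likelihood, R 4.3.3) with Benjamini-Hochberg adjustment over all tested genes. The threshold was an adjusted p of 0.01, with 0.05 as the second level. CPM are TMM-scaled and are not per length, so levels of different genes are not compared. The biological coefficient of variation was 0.226 for 3 against 3 pools. The edgeR fit of both groups was tested on simulated data. The simulated libraries were independent, with a single dispersion for all genes, and none stood apart. That test therefore cannot show how the fit behaves with libraries such as those that stood apart here. Genes were named by a rule: the called genes with the largest fold changes, with at least 1 CPM and groups that did not overlap, the called members of each list with the smallest p, the member with the highest mean CPM of lists without any, and the check genes of the study. The genes and lists were chosen with earlier results of these data known. Alternatives were RLE scaling, DESeq2 1.42.0, other filters, all 15 libraries in 1 fit, a replicate block, limma 3.58.1 on log2(FPKM + 1) and log2(FPKM + 0.1), and fits without single libraries. Leaving out both libraries that stood apart was added after the data had been seen.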

Additional observations from a re-analysis of the deposited data

Results flagged for a closer look

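Among 250 genes that were named or passed at the 0.05 level, and were tested with and without EPA, 3 (1.2%) had groups that did not overlap in either comparison and were ordered in opposite ways, as did 104 of all 14035 genes tested in both (0.741%). In these 3 genes every CY library lay on one side of every GA library with EPA and on the opposite side without EPA. The uncharacterised KZS21043.1 had 7.25, 5.89 and 9.13 CPM in CY +EPA and 3.19, 2.23 and 2.27 CPM in GA +EPA, but 6.0, 4.99 and 4.38 CPM in CY and 7.27, 7.87 and 6.61 CPM in GA. Its log2 fold changes differed by 2.02 (SE 0.28, interaction in edgeR, unadjusted p = 1.97e-05, adjusted p = 0.0784). Sestrin (KZS01477.1), a stress-inducible regulator of growth signalling, was lower in CY +EPA (32.8, 36.2 and 31.2 CPM against 67.3, 51.9 and 57.4 CPM, adjusted p = 0.0333), and had 35.6, 37.5 and 44.7 CPM in CY and 29.6, 26.6 and 31.7 CPM in GA. The difference of its log2 fold changes was -1.25 (SE 0.17, unadjusted p = 1.53e-05, adjusted p = 0.0784). Myosin regulatory light polypeptide 9 (KZS21414.1) had 3280, 3780 and 2940 CPM against 2930, 2840 and 2690 CPM with EPA, and 2680, 2970 and 3070 CPM against 3310, 3200 and 3110 CPM without, a difference of 0.37 (SE 0.15, unadjusted p = 0.0281, adjusted p = 0.4). No gene of the 3 reached the threshold in the interaction.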

How the results depend on the processing

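All 21 called genes kept their direction under every alternative run. The number of called genes was 16 with RLE scaling, 509 with DESeq2, 46 without a filter, 13 with at least 10 counts in every library, 362 with all 15 libraries in 1 fit, 23 on log2(FPKM + 1), 18 on log2(FPKM + 0.1), 219 at the 0.05 level and 330 without both libraries that stood apart, against 21. Without single libraries it ranged from 0 to 23. The percent of called genes that were higher in CY +EPA was 85.7 and became 62.9 with DESeq2, 67.4 with all 15 libraries, 69.6 on log2(FPKM + 1), 72.2 on log2(FPKM + 0.1), 71.2 at the 0.05 level and 46.4 without the libraries that stood apart, where the majority was lower. It ranged from 50 to 100 without single libraries. The interaction gave 44 genes with DESeq2 and 0 in edgeR. The causes were not tested.

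With the replicate number as a block 0 genes were called, 38 passed at the 0.05 level and 2970 had an unadjusted p below 0.05 (edgeR), and 19 of the 21 passed at 0.05. Deviations of libraries with the same number correlated at -0.0604, -0.0412 and 0.539, the last being the highest of any CY +EPA and GA +EPA pair. With 3 libraries per group these correlations depend on each other. They cannot decide whether the numbers pair the libraries.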

Other observations

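Some genes outside the lists above passed at the 0.05 level and were picked with their values in view. A pair of enzymes that lead to UDP-N-acetylglucosamine, the building block of chitin, was lower in CY +EPA. Glucosamine-fructose-6-phosphate aminotransferase 2 (KZS17445.1) had 111, 145 and 128 CPM against 258, 245 and 205 CPM (log2 fold change -0.88, SE 0.14, adjusted p = 0.0372, edgeR). UDP-N-acetylhexosamine pyrophosphorylase (KZS20840.1) had 62.2, 83.5 and 73.9 CPM against 161, 185 and 123 CPM (-1.09, SE 0.18, adjusted p = 0.0465). Without EPA their log2 fold changes were 0.07 and -0.30, and the interaction had adjusted p-values of 0.343 and 0.347 (edgeR). The second sestrin (KZS11975.1) was lower like the first (-0.70, SE 0.10, adjusted p = 0.0371). The X-box-binding protein (KZS18737.1), a transcription factor of the unfolded protein response, had 39.2, 44.3 and 41.5 CPM against 92.5, 80.0 and 108 CPM (-1.16, SE 0.12, adjusted p = 0.0169).

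Of 67 listed histone genes 25 had enough counts to be tested, some of them only through CY +EPA, and 5 of these were higher and 0 lower. The median log2 fold change was 0.21, became 0.78 over the 64 genes tested without a filter and -0.05 over the 17 with at least 10 counts in every library, so nothing is read from the list as a whole. Histone H1.0 (KZS10847.1), with split reads, had 441, 384 and 439 CPM against 248, 270 and 244 CPM (0.73, SE 0.09, adjusted p = 0.0245), and histone H3.2 (KZS11332.1) had 4.35, 3.2 and 4.67 CPM against 1.06, 0.95 and 1.03 CPM (1.99, SE 0.21, adjusted p = 0.0169). Markers of dividing cells, of which 6 of 12 are histones of this list, overlapped between the groups, with 1130 to 1310 CPM in CY +EPA and 1040 to 1420 CPM in GA +EPA.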
